A study of Homo sapiens with 21 samples.

Results

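Cells given calcium were compared directly with cells given the receptor agonist GSK4716, with no control group in the test, to find what calcium does in these cells that the agonist does not. The genes compared were those with a mean of at least 0.5 FPKM (fragments scaled to gene length and to the depth of the library) over the 3 calcium and 3 GSK4716 libraries. This held for 14355 of the 58735 genes listed, and the 6 libraries were among 21 in the series. Just inside that limit, 328 genes had a mean between 0.5 and 0.55 FPKM, and just outside it 351 genes had a mean between 0.45 and 0.5 FPKM. A gene low in 1 group could pass that limit only by being high in the other, so the counts and medians over list members that passed, given below, are descriptions of those members and not of the whole lists.

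All libraries came from MDA-MB-453 cells, a human breast cancer line, and were made from poly-A RNA. The cells were seeded in DMEM with fetal bovine serum, moved to IMEM with charcoal-stripped serum, and then treated for 24 h in serum-free IMEM with calcium (10 mM) or with GSK4716 (5 μM). GSK4716 was given in ethanol and no vehicle is stated for calcium, so the treatment and the vehicle cannot be told apart. The control libraries, given below only as levels beside the 2 treatments, belong to 1 group whose medium and vehicle are not specified. Other libraries, used at the end, had diethylstilbestrol (DES, 10 μM), given to inhibit ESRRB, either alone for 24 h or from 3 h before calcium was added.

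Estrogen-related receptors are nuclear receptors that resemble the estrogen receptor but do not bind estradiol, and they control genes of energy metabolism and, in the case of ESRRB, of stem cells. GSK4716 is a synthetic ligand that raises the activity of ESRRB and ESRRG. Calcium acts on cells from outside, through a G protein-coupled calcium-sensing receptor, and from inside, through calmodulin, calcineurin and the calmodulin-dependent kinases. A rise in cell calcium is known to switch on immediate early genes, whose transcription needs no new protein, through the MAP kinases and the factors SRF and CREB.

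The 3 calcium libraries held from 16987426 to 22056579 fragments on genes and the 3 GSK4716 libraries from 15681802 to 21757684. On log2 values, the calcium libraries correlated with each other at 0.888 to 0.919 and the GSK4716 libraries at 0.941 to 0.949. Calcium replicate 2 stood farthest from the agonist (0.844 to 0.856), while the other calcium libraries reached 0.894 to 0.908. The median SD per gene was 0.318 log2 units among the calcium libraries and 0.219 among those with GSK4716. Mitochondrial genes took 4.88% to 7.55% of the fragments with calcium and 8.20% to 8.84% with GSK4716, a gap that moves with the treatment and whose part in the results was not tested. The luminal markers KRT8, KRT18, KRT19, EPCAM, FOXA1, GATA3 and ERBB2 were present in all 6 libraries, VIM was at 0 with calcium, and none of the leukocyte or endothelial markers reached the limit on the mean.

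With calcium, 507 genes (3.53% of those tested) were higher than with GSK4716 and 159 (1.11%) were lower. The test was limma on log2(FPKM + 0.1), with p-values adjusted by Benjamini and Hochberg over all 14355 genes and a threshold of 0.05, and differences are given on that log2 scale, which understates those of low genes. Among all genes 7231 (50.4%) had a positive difference, with a median of 0.0048. Scaling by total fragments gave 387 higher and 230 lower genes and quantile normalization 436 and 245, with the median of all genes at -0.092 and -0.074. The count of calls moved with single libraries: leaving out calcium replicate 1 gave 313 genes, calcium replicate 2 gave 61, calcium replicate 3 gave 830, GSK4716 replicate 1 gave 56, GSK4716 replicate 2 gave 265 and GSK4716 replicate 3 gave 298. Without calcium replicate 2 the median of the 12 largest falls described below was -2.10, as with all libraries, and that of the 12 largest rises 5.15 against 5.72. These genes were chosen for their large differences, and medians of gene lists described below moved in both directions. That of the EGF family ligands went from 2.59 to 1.72 and that of cholesterol synthesis from 1.19 to 1.35. With no limit on the mean, 3 genes were called.

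The 3 calcium values of a gene lay on 1 side of the 3 GSK4716 values for 3822 genes (26.6%), and for all 666 called genes. Among the higher genes the median difference was 1.57, and 189 were at least 2 and 85 at least 3. Among the lower genes the median was -1.08, and 20 fell by at least 2 and 10 by at least 3. Calcium replicate 2 was the highest of the calcium libraries in 260 of the 507 higher genes and the lowest in 72 of the 159 lower ones. In 28 higher and 10 lower genes, 1 group held at most 3 fragments in every library, and the fitted difference of those genes depends on the pseudocount. The labels do not say that the libraries came from separate cultures, so the p-values measure the spread between these libraries alone, and an exact permutation test of 3 against 3 could not go below 0.1. In bulk libraries a change in the share of cells that use a gene and a change in RNA per cell cannot be told apart.

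**Figure D1:**
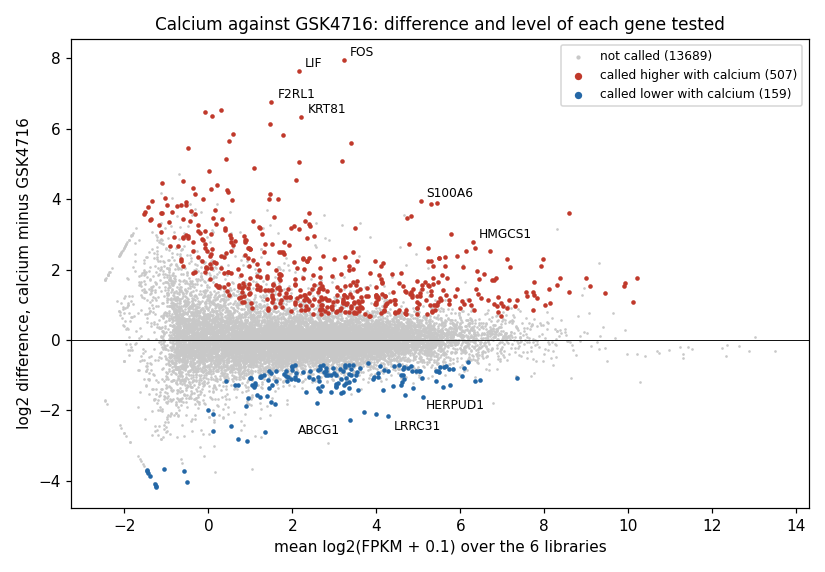
Each point is 1 of 14355 genes, placed by its mean log2(FPKM + 0.1) over the 6 libraries (x axis) and by its log2 difference, calcium minus GSK4716 (y axis). The 507 called higher genes are red and reach 7.95 at FOS, the 159 called lower genes are blue, and the 13689 genes not called are grey.

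The 12 largest rises among protein-coding genes with a mean of at least 1 FPKM and groups that did not overlap were FOS, LIF, F2RL1, KRT81, GEM, FOSB, RASD1, CGA, HSPA6, NR4A1, AREG and CXCL8. FOS, a subunit of the AP-1 transcription factor (ENSG00000170345, chr14:75278774-75282230, + strand), read 97.9, 277 and 116 FPKM with calcium and 0.314, 0.435 and 0.842 FPKM with GSK4716. The control libraries lay at 0.392, 0.512 and 0.355 FPKM, at the level of the agonist. The difference was 7.95 ± 0.44 (SE, adjusted p = 0.000894), the largest of the 14355 genes, and every calcium library was far above every agonist library. FOSB, a related subunit, read 17.9, 51.6 and 18.1 FPKM against 0.366, 0.345 and 0.340 FPKM, a difference of 5.83 ± 0.40 (adjusted p = 0.00141). FOSB overlaps ERCC1, so reads of the pair may be mixed.

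LIF, a cytokine of the IL-6 family that keeps mouse stem cells undifferentiated (ENSG00000128342, chr22:30240447-30246851, - strand), read 50.4, 123 and 39.2 FPKM with calcium. With GSK4716 it read 0.0285, 0.270 and 0.55 FPKM and in the control libraries 0.148, 0.0477 and 0.198 FPKM. The difference was 7.64 ± 0.63 (adjusted p = 0.00323), and the lowest calcium library lay well above the highest of the other 6. The long noncoding gene AC004264.1, antisense to LIF, was the largest rise among called lncRNA genes, with 10.2, 25.9 and 6.13 FPKM against 0, 0 and 0.106 FPKM. Against the limit of 3 fragments per library its level was at least 72.3-fold higher, but without strand its reads cannot be told apart from those of LIF.

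F2RL1, the protease-activated receptor that trypsin opens, read 25.1, 27.6 and 36.0 FPKM against 0.0955, 0.190 and 0.255 FPKM, a difference of 6.75 ± 0.27 (adjusted p = 0.000156). Its calcium libraries lay close together, and it held the lowest adjusted p of the 12 largest rises. RASD1, a small GTPase induced by glucocorticoids, read 54.2, 179 and 41.0 FPKM against 1.16, 1.39 and 1.73 FPKM (5.61, adjusted p = 0.00373). GEM, another small GTPase, which limits voltage-gated calcium channels, read 4.97, 21 and 13.6 FPKM against 0.0854, 0.0425 and 0.190 FPKM (5.85, adjusted p = 0.00373). In both genes the groups were apart and calcium replicate 2 was the highest.

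Further ligands and a hair keratin stood among the 12 largest rises. AREG, an EGF receptor ligand, read 9.57, 67.9 and 25.6 FPKM against 0.549, 0.684 and 0.815 FPKM (5.05, adjusted p = 0.00949). CXCL8, the neutrophil chemokine, read 5.87, 51.3 and 5.03 FPKM against 0.646, 0.198 and 0.166 FPKM (4.90, adjusted p = 0.0264), so that 1 calcium library was far above the others. CGA, the common subunit of the glycoprotein hormones, read 1.78, 12.1 and 4.46 FPKM with calcium and 0.0247, 0 and 0 FPKM with the agonist, and was at least 90.4-fold higher against the limit of 3 fragments per library. KRT81, a hair keratin, read 11.4, 104 and 59.7 FPKM against 0.117, 0.993 and 0.479 FPKM (6.33, adjusted p = 0.0123), and it overlaps its relative KRT86. HSPA6, a heat-inducible HSP70, completed the group with NR4A1, described below (5.14 and 5.07). Without GSK4716 replicate 1, 7 of the 12 were still called.

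The 10 genes that fell by at least 3 were small RNA genes and pseudogenes, and the largest falls below are those of protein-coding genes with a mean of at least 1 FPKM. ABCG1, which exports cholesterol from cells (ENSG00000160179, chr21:42199689-42297244, + strand), read 6.52, 3.20 and 4.66 FPKM with calcium, 19.6, 25.2 and 23.3 FPKM with GSK4716 and 13.2, 9.67 and 16 FPKM in control. The difference was -2.27 ± 0.26 (adjusted p = 0.00917), and the control libraries lay between the groups. LRRC31, a leucine-rich repeat protein, read 6.68, 11.2 and 9.56 FPKM against 42.3, 45.6 and 35.2 FPKM, with control at 21.3, 13.9 and 26.0 FPKM (-2.18 ± 0.22, adjusted p = 0.00602). Here too the control libraries lay between the treatments.

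UNC5A and UNC5B, receptors for netrin, fell together: UNC5A read 0.565, 0.656 and 0.369 FPKM against 3.44, 6.86 and 3.22 FPKM (-2.81, adjusted p = 0.0104). UNC5B read 8.48, 5.76 and 4.96 FPKM against 27.7, 19.6 and 33.5 FPKM (-2.06, adjusted p = 0.0106), and overlaps its antisense gene. PHGDH, the first enzyme of serine synthesis, read 9.24, 8.27 and 5.59 FPKM against 49.0, 17.6 and 40.0 FPKM (-2.10, adjusted p = 0.0282). The lowest agonist library of PHGDH was thus still above all calcium libraries. SPINK8, a protease inhibitor, had the largest fall of the 12 (-2.87, adjusted p = 0.0245), from 7.26, 7.23 and 2.36 FPKM with the agonist to 1.01, 0.515 and 0.402 FPKM. The other members of the 12 were LRRIQ4, UMODL1, TTYH2, HLF, CDKN2C and GNMT, from -2.58 to -1.79. The control level differed among the 12. TTYH2 read 0.541, 0.379 and 0.563 FPKM in control, near calcium (0.558, 0.436 and 0.249 FPKM) and below the agonist (1.78, 1.74 and 2.09 FPKM). CDKN2C in control, at 8.11, 9.24 and 6.97 FPKM, was above both treatments, and PHGDH, at 29.3, 24.6 and 23.8 FPKM, lay within the agonist range. Of these falls 2 of 12 were called without calcium replicate 2, 2 without GSK4716 replicate 1, 5 without GSK4716 replicate 2 and 7 without GSK4716 replicate 3.

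**Figure D2:**
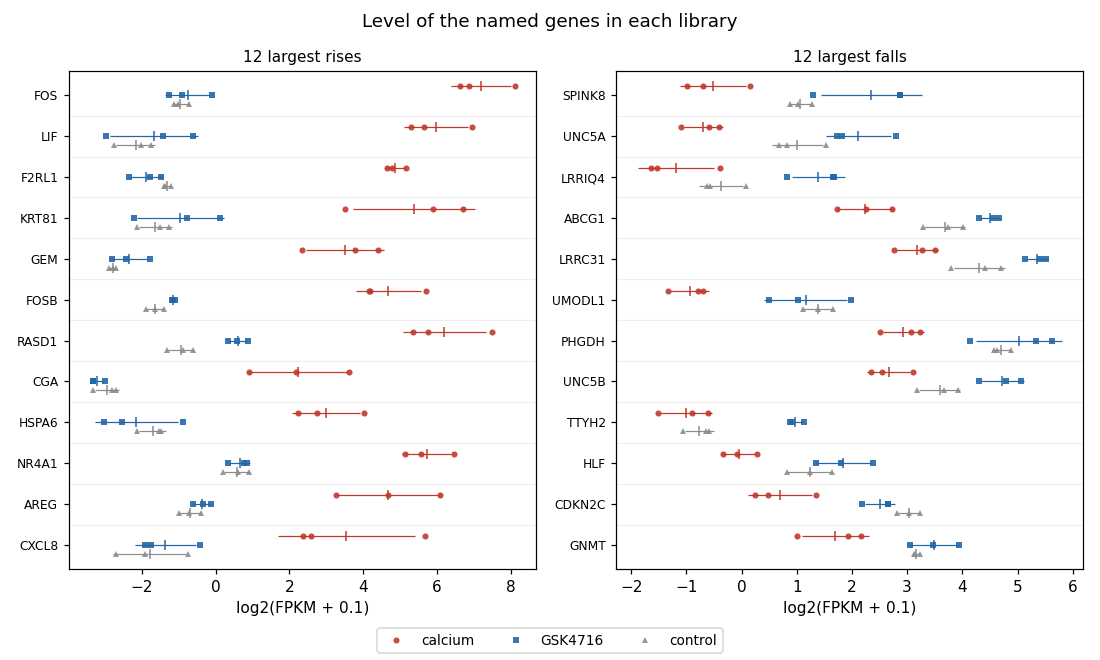
Log2(FPKM + 0.1) of the 12 largest rises and the 12 largest falls, with 1 point per library for calcium (circles), GSK4716 (squares) and control (triangles), the tick at the mean and the bar at ± 1 SD. In the rises the calcium libraries stand apart from both other groups, while in ABCG1, LRRC31 and UNC5B the control libraries lie between the treatments.

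The promoters of FOS, FOSB and EGR1 are shown because they hold the elements marked below. Each is the 250 bases before the start of the RefSeq gene model on GRCh38.p14, written 5′ to 3′ on the strand of the gene: chr14:75278578-75278827 (+) for FOS, chr19:45467746-45467995 (+) for FOSB and chr5:138465229-138465478 (+) for EGR1. Capitals mark TGACG, the core of the cAMP response element bound by CREB (CGTCA on the other strand), and in EGR1 also the CArG box, the site of SRF. The promoter of NR4A1, searched in the same way, held neither element and is not shown.
FOS: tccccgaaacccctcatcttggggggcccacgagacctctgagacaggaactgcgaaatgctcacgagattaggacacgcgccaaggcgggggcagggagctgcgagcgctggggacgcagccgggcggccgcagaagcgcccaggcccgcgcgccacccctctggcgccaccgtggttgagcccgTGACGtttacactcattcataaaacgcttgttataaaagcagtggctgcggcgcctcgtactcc
FOSB: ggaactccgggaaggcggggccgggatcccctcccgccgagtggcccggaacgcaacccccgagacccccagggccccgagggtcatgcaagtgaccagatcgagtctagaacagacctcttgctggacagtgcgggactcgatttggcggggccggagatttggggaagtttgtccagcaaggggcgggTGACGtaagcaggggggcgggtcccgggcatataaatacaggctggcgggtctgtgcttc
EGR1: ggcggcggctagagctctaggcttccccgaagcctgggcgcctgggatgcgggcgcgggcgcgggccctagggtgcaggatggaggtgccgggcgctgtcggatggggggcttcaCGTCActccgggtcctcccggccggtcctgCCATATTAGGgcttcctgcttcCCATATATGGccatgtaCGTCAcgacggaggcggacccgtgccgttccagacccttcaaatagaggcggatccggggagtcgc

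TGACG lies at -64 to -60 in FOS and at -60 to -56 in FOSB, counted from the start site. EGR1 holds it at -135 to -131 and at -66 to -62, beside CArG boxes at -105 to -96 and -83 to -74. On either strand, TGACG was in 31.2% of the promoters of called higher genes that could be matched (356 of 507), in 30.0% of those of called lower genes (110 of 159) and in 31.1% of those of tested genes (9546 of 14355). Among the lists it was in 7 of 12 matched AP-1 promoters (58.3%), 10 of 19 of the other immediate early genes (52.6%) and 9 of 18 of cholesterol synthesis (50.0%), but also in 42.1% of the unfolded protein response promoters and 41.0% of those of the G1/S list, whose called members were lower. The share over all 27305 promoters of the table was 21.7%. A CArG box was in 13 of the 356 promoters of higher genes (3.65%), in 0.901% of those of tested genes and in 1.14% of all. The AP-1 site TGACTCA was in 5.90% of the promoters of higher genes, in 2.51% of those tested and in 4.16% of all. The estrogen-related receptor element TNAAGGTCA was in 3 promoters of higher genes (0.843%), in 0 of the 110 of lower genes, in 0.409% of those tested and in 0.850% of all. These are matches of letters in a short window.

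Of the 14 tested AP-1 members 8 were called higher and 0 lower, with a median of 1.93, against 3.53% of all genes called higher and a median of 0.0048. JUN read 203, 204 and 230 FPKM against 45.9, 66.4 and 78.6 FPKM (1.77, adjusted p = 0.0101). JUNB read 285, 372 and 249.4 FPKM against 64.5, 71.4 and 75.1 FPKM (2.08, adjusted p = 0.00373). JUN and JUNB were thus well expressed with the agonist, and the control level of JUN was 17.0, 19.1 and 41.7 FPKM. ATF3, a stress-induced member, read 48.5, 235 and 61.0 FPKM against 7.89, 5.42 and 11.6 FPKM (3.47, adjusted p = 0.0217). FOSL1 (3.84), MAFF (3.23) and BATF2 (2.94) completed the called members, and FOSL1 was at 0, 0 and 0.133 FPKM with the agonist. JUND (0.79, adjusted p = 0.172) and FOSL2 (0.08, adjusted p = 0.857) were not called. Without calcium replicate 2 the list held 5 calls, without GSK4716 replicate 1 it held 4 and without GSK4716 replicate 2 it held 5.

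Among the other immediate early genes 17 of 25 tested were called higher and 0 lower, against 3.53% and 1.11% of all genes. All 25 had a positive difference, against 50.4% of all genes, and the median was 1.88. The NR4A family of orphan nuclear receptors moved as a whole. NR4A1 read 35.3, 87.7 and 47.3 FPKM against 1.15, 1.61 and 1.71 FPKM (5.07, adjusted p = 0.00125). NR4A2 read 11.6, 44.0 and 16.3 FPKM against 0.784, 0.824 and 0.709 FPKM (4.55, adjusted p = 0.00513). NR4A3 read 2.39, 12.8 and 4.58 FPKM against 0.107, 0.0714 and 0.0997 FPKM (4.79, adjusted p = 0.00933). In all 3 genes the agonist libraries lay close together and calcium replicate 2 was the highest.

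EGR1, a zinc-finger factor, read 176, 99.4 and 191 FPKM with calcium and 3.84, 6.32 and 44.2 FPKM with GSK4716, a difference of 3.85 ± 0.81 (adjusted p = 0.0417). Its agonist replicate 3 was high, and so was control replicate 3 (3.51, 6.05 and 21.2 FPKM). KLF2 was also highest in that agonist library, at 29.3, 17.7 and 115 FPKM against 116, 150 and 107 FPKM with calcium, and was not called (1.65, adjusted p = 0.173). IER3, an early response gene that limits cell death, read 459, 809 and 339 FPKM against 103, 98.7 and 154 FPKM (2.11, adjusted p = 0.0196). PLK3, a stress-responsive kinase, read 12.7, 27.9 and 12.2 FPKM against 1.46, 1.26 and 2.06 FPKM (3.30, adjusted p = 0.00697). SRF itself was not called (0.86, adjusted p = 0.0661). The list held 6 calls without calcium replicate 2, 6 without GSK4716 replicate 1 and 11 without GSK4716 replicate 2.

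Of 13 tested genes of the CREB and cyclic AMP response, RASD1 alone was called, 6 had an unadjusted p under 0.05, 5 lay wholly above the agonist and 2 wholly below, and the median was 0.32. Over all 14355 genes 3.53% were called higher, 20.7% had an unadjusted p under 0.05, and 2199 lay wholly above and 1623 wholly below. Of 9 tested genes around calcineurin and NFAT, RCAN1 alone was called. RCAN1, a calcineurin inhibitor that is itself an NFAT target, read 7.60, 15.1 and 9.94 FPKM against 3.60, 4.25 and 3.19 FPKM (1.49, adjusted p = 0.0261). It kept its call without calcium replicate 1 or 3 and lost it without any of the other 4 libraries. Among the calmodulin-dependent kinases 1 of 10 was called, DAPK2, at 2.76, 2.72 and 2.94 FPKM against 0.880, 0.848 and 1.16 FPKM (1.46, adjusted p = 0.017), a call lost without calcium replicate 2, GSK4716 replicate 1 or GSK4716 replicate 2.

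Feedback inhibitors of the MAP kinases were higher with calcium for 5 of 16 tested members, against 3.53% of all genes, with 0 lower and a median of 0.55. ERRFI1, which blocks EGF receptors, read 149, 265 and 206 FPKM against 25.5, 26.5 and 52.6 FPKM (2.61, adjusted p = 0.0101). The phosphatase DUSP5, which acts on ERK in the nucleus, read 69.8, 52.1 and 47.4 FPKM against 19.0, 15.7 and 17.3 FPKM (1.68, adjusted p = 0.00854). DUSP1 (1.75), DUSP6 (1.40) and DUSP4 (1.35) were the other called members. SPRY2 (1.00, adjusted p = 0.0547) and SPRY4 (0.58, adjusted p = 0.126) were not called. Without calcium replicate 2 the list held 2 calls and without GSK4716 replicate 1 it held 1.

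Several secreted ligands were among the called higher genes. Of 11 EGF family ligands 5 passed the limit on the mean, HBEGF and EPGN only through the calcium libraries, and AREG and HBEGF were called, HBEGF at 1.77, 4.11 and 1.85 FPKM against 0.150, 0.149 and 0.348 FPKM (3.03, adjusted p = 0.0175). AREG and HBEGF both lost the call without GSK4716 replicate 1, and 1 was left without calcium replicate 2. Of the 14 tested members of 21 in the LIF and IL-6 family, LIF and CLCF1 were called, CLCF1 at 7.69, 15.7 and 10.8 FPKM against 1.86, 1.54 and 3.85 FPKM (2.24, adjusted p = 0.0229). Over all 14355 genes 3.53% were called higher, 2199 lay wholly above the agonist and 1623 wholly below. The LIF and IL-6 list was mixed, with 5 negative differences, 6 members wholly above and 4 wholly below. A single call was left in this list without calcium replicate 2, without GSK4716 replicate 1 or without GSK4716 replicate 2. IL6 itself was listed at 0 in all 3 agonist libraries and at 0.585, 7.71 and 0.410 FPKM with calcium, and was not called.

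Of 22 listed cytokines, chemokines and proteases 8 passed the limit on the mean, several of them through the calcium libraries alone, such as CXCL2, CXCL8 and TNFAIP3. Of these 5 were called, a count that this limit shaped (3.53% of all genes were called higher). MMP13, a collagenase, read 27.1, 28.9 and 47.6 FPKM against 7.5, 2.44 and 2.55 FPKM (3.17, adjusted p = 0.0129). TIMP1, an inhibitor of such proteases, read 104, 119 and 87.7 FPKM against 15.7, 31.0 and 27.9 FPKM (2.10, adjusted p = 0.0106). CXCL2 read 1.28, 21.5 and 0.953 FPKM against 0, 0.0751 and 0 FPKM and was not called (adjusted p = 0.0561), with 1 calcium library far above the others. In this list 0 calls were left without calcium replicate 2, where all 8 differences were still positive, 3 without calcium replicate 1, and 2 without any 1 of the GSK4716 libraries.

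CTGF and CYR61, matrix-associated proteins of the CCN family, were the called members of 12 tested YAP and CCN genes (3.53% of all genes were called higher). CYR61 read 108, 237 and 186 FPKM against 8.33, 14.6 and 11.6 FPKM (3.89, adjusted p = 0.00323). CTGF read 1.40, 3.18 and 6.36 FPKM against 0, 0.0241 and 0.108 FPKM (4.53, adjusted p = 0.0135). Both genes were at the level of control with the agonist, CYR61 at 7.32, 8.79 and 11.9 FPKM in control. In this list 1 call was left without calcium replicate 2 or GSK4716 replicate 1. In the TGF-beta and BMP list 5 of 24 were called higher and 10 had a negative difference. In that list 7 lay wholly above and 4 wholly below the agonist, as did 2199 and 1623 of all 14355 genes. The called genes were led by the ligand TGFB2 at 1.68, 9.61 and 11.5 FPKM against 0.0878, 0.831 and 0.196 FPKM (3.97, adjusted p = 0.0403). ID3, an inhibitor of basic helix-loop-helix factors, followed at 19.2, 36.2 and 12.9 FPKM against 4.91, 4.14 and 5.44 FPKM (2.09, adjusted p = 0.0223). The TGF-beta list held 0 calls without calcium replicate 2, GSK4716 replicate 1 or GSK4716 replicate 3, 2 without calcium replicate 1, 3 without calcium replicate 3 and 2 without GSK4716 replicate 2. In the Notch list 1 of 15 was called, a share near that of all genes, the ligand DLL4, at 5.95, 13.7 and 9.08 FPKM against 1.04, 1.48 and 1.19 FPKM (2.79, adjusted p = 0.00854), a call lost without GSK4716 replicate 1.

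**Figure D3:**
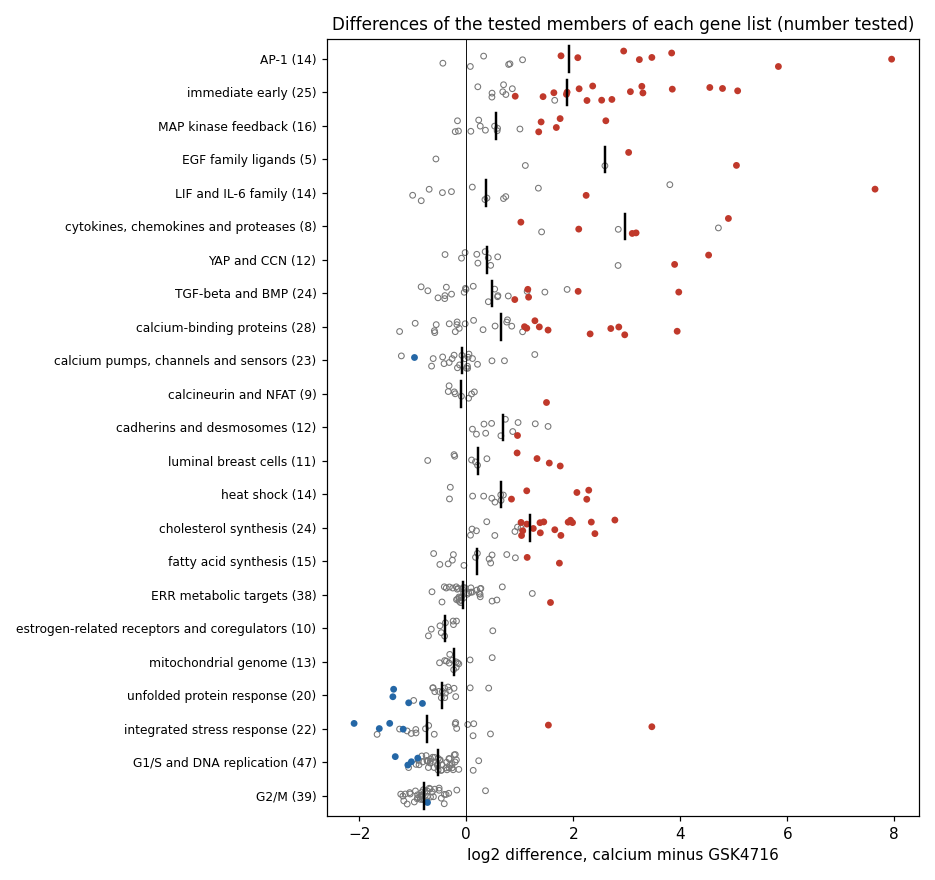
Log2 difference, calcium minus GSK4716 (x axis), of each tested member of 23 gene lists (rows), filled where called and open where not, with a black bar at the median of the list. Cholesterol synthesis, AP-1 and the immediate early genes lie to the right of 0, with medians of 1.19, 1.93 and 1.88, while the unfolded protein response and the G1/S and G2/M genes lie to its left.

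Of 28 tested calcium-binding proteins, S100 proteins and annexins among them, 10 were called higher, 0 lower and 18 not called, with a median of 0.65, but 0.33 without GSK4716 replicate 2 and 0.42 without calcium replicate 2. In limma-voom, under quantile normalization and without GSK4716 replicate 2, 1 member was called lower. In 14 the calcium libraries lay wholly above the agonist libraries and in 6 wholly below, and 11 had a negative difference. Of all 14355 genes 3.53% were called higher, 2199 lay wholly above and 1623 wholly below. S100A6, a small EF-hand protein, read 109, 123 and 165 FPKM against 7.51, 5.4 and 14.4 FPKM (3.94 ± 0.35, adjusted p = 0.00373), with control at 5.29, 7.95 and 11.3 FPKM. S100A10, which pairs with annexin A2, read 67.9, 115 and 130 FPKM against 15.6, 17.5 and 30.0 FPKM (2.31, adjusted p = 0.0133). ANXA2 itself read 338, 330 and 340 FPKM against 149, 122 and 144 FPKM (1.28, adjusted p = 0.0101), so both partners rose. STC1, a secreted hormone of calcium balance, read 8.05, 25.9 and 19.4 FPKM against 2.52, 1.70 and 1.76 FPKM (2.96, adjusted p = 0.0131). ANXA3 (2.85), S100A9 (2.70) and S100A11 (1.53) were called too. The calcium-binding chaperones of the endoplasmic reticulum, CALR (-0.59, adjusted p = 0.118) and CANX (-0.60, adjusted p = 0.115), were not called. The list held 2 calls without calcium replicate 2 and 3 without GSK4716 replicate 1.

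Among 23 tested pumps, channels and sensors 0 were called higher and 1 lower by limma, against 3.53% and 1.11% of all genes. That gene, ATP2C2, the calcium pump of the secretory pathway in epithelial cells, read 8.26, 6.47 and 6.76 FPKM against 15.1, 13.2 and 14.1 FPKM (-0.98, adjusted p = 0.021), and its control level was 9.25, 6.35 and 11.2 FPKM. The call was lost without calcium replicate 2 or any 1 of the GSK4716 libraries, and without calcium replicate 1 the list held 1 higher and 2 lower calls. ATP2A2, the pump of the endoplasmic reticulum, read 22.5, 21.6 and 22.6 FPKM against 22, 27.2 and 24.0 FPKM (-0.13, adjusted p = 0.67). CASR, the calcium-sensing receptor, was listed at 0 in all 3 calcium libraries and at 0, 0 and 0.0035 FPKM with GSK4716. Its RNA was therefore near or below detection in both groups. Of the genes that calcium is known to raise in skin, 1 of 10 was called, the zinc-finger factor OVOL1, at 21.1, 40.2 and 20.02 FPKM against 5.23, 3.69 and 4.62 FPKM (2.50, adjusted p = 0.00917). Of the 10, 8 had a positive difference (50.4% of all genes), with a median of 0.72, and 8 had an unadjusted p under 0.05 by limma (20.7% of all genes). SPRR1A (4.02, adjusted p = 0.12) and SPRR1B (3.22, adjusted p = 0.167) were not called and passed the limit on the mean only through the calcium libraries. The skin list held 3 calls without calcium replicate 1 and 2 without GSK4716 replicate 3.

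Of 24 tested genes of cholesterol synthesis and its control 16 were called higher, against 3.53% of all genes, and 0 lower, all 24 had a positive difference, against 50.4% of all genes, and the median was 1.19. HMGCS1, which makes HMG-CoA, read 156, 154 and 362 FPKM with calcium, 37.5, 33.6 and 21.3 FPKM with GSK4716 and 67.9, 77.7 and 73.9 FPKM in control (2.78 ± 0.37, adjusted p = 0.0114). FDPS, which makes farnesyl pyrophosphate, read 86.2, 103 and 117 FPKM against 28.7, 17.2 and 16.1 FPKM, with control at 44.7, 50.8 and 40.5 FPKM (2.34 ± 0.25, adjusted p = 0.00737). For both genes, the control libraries lay below all calcium libraries and above all agonist libraries. MVD, the decarboxylase of mevalonate diphosphate, had the lowest adjusted p of these, at 39.7, 48.4 and 52.4 FPKM against 12.7, 12.5 and 12 FPKM (1.90 ± 0.16, adjusted p = 0.00323). Its control libraries, at 20.2, 24.8 and 26.5 FPKM, lay in between as well.

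SQLE, an epoxidase of squalene, read 82.4, 74.7 and 159 FPKM against 36.6, 40.5 and 32.3 FPKM (1.45, adjusted p = 0.035). In HMGCS1, SQLE and IDI1 calcium replicate 3 was the highest. INSIG1, which holds back the SREBP factors that drive these genes, was also higher (1.06, adjusted p = 0.0471), while SREBF2, the gene of SREBP-2, was not called (0.08, adjusted p = 0.815). FDFT1 (1.02, adjusted p = 0.0579) stood just outside the threshold. On the side of export, ABCG1 was 1 of 6 tested LXR genes called, lower with calcium as given above, and stayed called without any 1 library, and MYLIP, a ubiquitin ligase, was not called (-0.79, adjusted p = 0.0606). Of all genes 3.53% were called higher and 1.11% lower. Of 15 fatty acid synthesis genes ACSS2 (1.74) and ELOVL6 (1.14) were called, and 0 of these without calcium replicate 2, GSK4716 replicate 1 or GSK4716 replicate 3 and 1 without calcium replicate 1 or GSK4716 replicate 2. The cholesterol list held 9 calls without calcium replicate 1, 3 without calcium replicate 2, 3 without GSK4716 replicate 1, 6 without GSK4716 replicate 2 and 6 without GSK4716 replicate 3. It held 9 in a fit of all 7 groups and 9 under quantile normalization. The sterol regulatory element TCACNCCAC was in 1 of its 18 matched promoters, in 0.562% of those of called higher genes, in 2.73% of those of called lower genes, in 0.880% of those tested and in 0.875% of all.

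Of 20 tested genes of the unfolded protein response, which is switched on when protein folding falls behind, 4 were called lower and 0 higher, 18 had a negative difference, and the median was -0.46 (1.11% of all genes were called lower). HERPUD1, which takes part in disposal of misfolded proteins, read 19.0, 17.4 and 18.5 FPKM with calcium, 47.9, 39.7 and 54.5 FPKM with GSK4716 and 18.0, 12.3 and 28.9 FPKM in control (-1.36 ± 0.16, adjusted p = 0.00927). HSPA5, the main chaperone there, read 115, 136 and 91.7 FPKM against 279, 208 and 233 FPKM, with control at 133, 120 and 123 FPKM (-1.08 ± 0.20, adjusted p = 0.0313). For both genes the calcium libraries were at or near the level of control and the agonist libraries were above both. DNAJB9 (-1.37) and PDIA4 (-0.82) were the other called members, and XBP1 (-0.23, adjusted p = 0.688) was not called. In this list 0 calls were left without calcium replicate 2 or GSK4716 replicate 1, and 1 without calcium replicate 1, GSK4716 replicate 2 or GSK4716 replicate 3. They numbered 7 under scaling by total fragments, 8 under quantile normalization and 1 in a fit of all 7 groups.

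The HSPA5 promoter, chr9:125241344-125241593 (- strand, GRCh38.p14, RefSeq), is shown because it holds an element known from targets of the unfolded protein response. Capitals mark the endoplasmic reticulum stress element (CCAAT and CCACG with 9 bases of any kind between them), at -66 to -48.
HSPA5: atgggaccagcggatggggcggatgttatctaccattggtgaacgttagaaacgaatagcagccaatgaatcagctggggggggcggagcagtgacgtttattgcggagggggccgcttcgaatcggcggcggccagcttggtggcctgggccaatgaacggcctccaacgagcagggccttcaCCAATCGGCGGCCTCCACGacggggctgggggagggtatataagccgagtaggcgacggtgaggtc

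On either strand this element was in 5 of the 19 matched promoters of the unfolded protein response list (26.3%), in 14 of all tested promoters (0.147%) and in 0.0806% of the whole table. It was not found in the promoter of HERPUD1.

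The integrated stress response, which shares ATF4 with the unfolded protein response, was mixed, with 2 of 22 called higher and 4 lower, against 3.53% and 1.11% of all genes, and a median of -0.73. MTHFD2, a mitochondrial folate enzyme, read 21, 17.4 and 20.6 FPKM against 69.5, 43.7 and 73.5 FPKM (-1.63, adjusted p = 0.0129). DDIT4, an inhibitor of mTOR, read 55.8, 59.1 and 48.7 FPKM against 155, 123 and 98.1 FPKM (-1.18, adjusted p = 0.024). PPP1R15A, which ends the response by dephosphorylating eIF2, went the other way, at 33.3, 63.8 and 34.9 FPKM against 13.5, 11.3 and 19.6 FPKM (1.53, adjusted p = 0.0348). GSK4716 replicate 2 stood apart from its group in several of these genes. ATF4 read 347, 143 and 411 FPKM in the agonist libraries and DDIT3 read 53.6, 22.8 and 63.9 FPKM, and neither was called (adjusted p = 0.415 and 0.199). Without GSK4716 replicate 2 the list held 0 higher and 6 lower calls, without GSK4716 replicate 1 it held 0 and 0, without calcium replicate 2 it held 1 and 0, without calcium replicate 1 it held 1 and 1, and without calcium replicate 3 or GSK4716 replicate 3 it held 2 and 2.

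Of 14 tested heat shock genes, most of them cytosolic chaperones, 5 were called higher, against 3.53% of all genes, and 0 lower, with a median of 0.65. HSPB1, a small heat shock protein, read 444, 893 and 420 FPKM against 81.9, 98.7 and 176 FPKM (2.29, adjusted p = 0.0217). HSPA1A (2.07) and HSPA1B (2.25), near-identical copies whose reads may be split between them, read 100, 241 and 105 FPKM and 62.6, 153 and 58.2 FPKM with calcium. With the agonist HSPA1A read 22.6, 49.4 and 30.7 FPKM and HSPA1B 13.9, 20.7 and 17.7 FPKM. Calcium replicate 2 was the highest in each of these genes. The list held 1 call without calcium replicate 2, 0 without GSK4716 replicate 1, 2 without calcium replicate 1, 1 without GSK4716 replicate 2 and 1 without GSK4716 replicate 3, and 0 in the fit of all 7 groups.

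**Figure D4:**
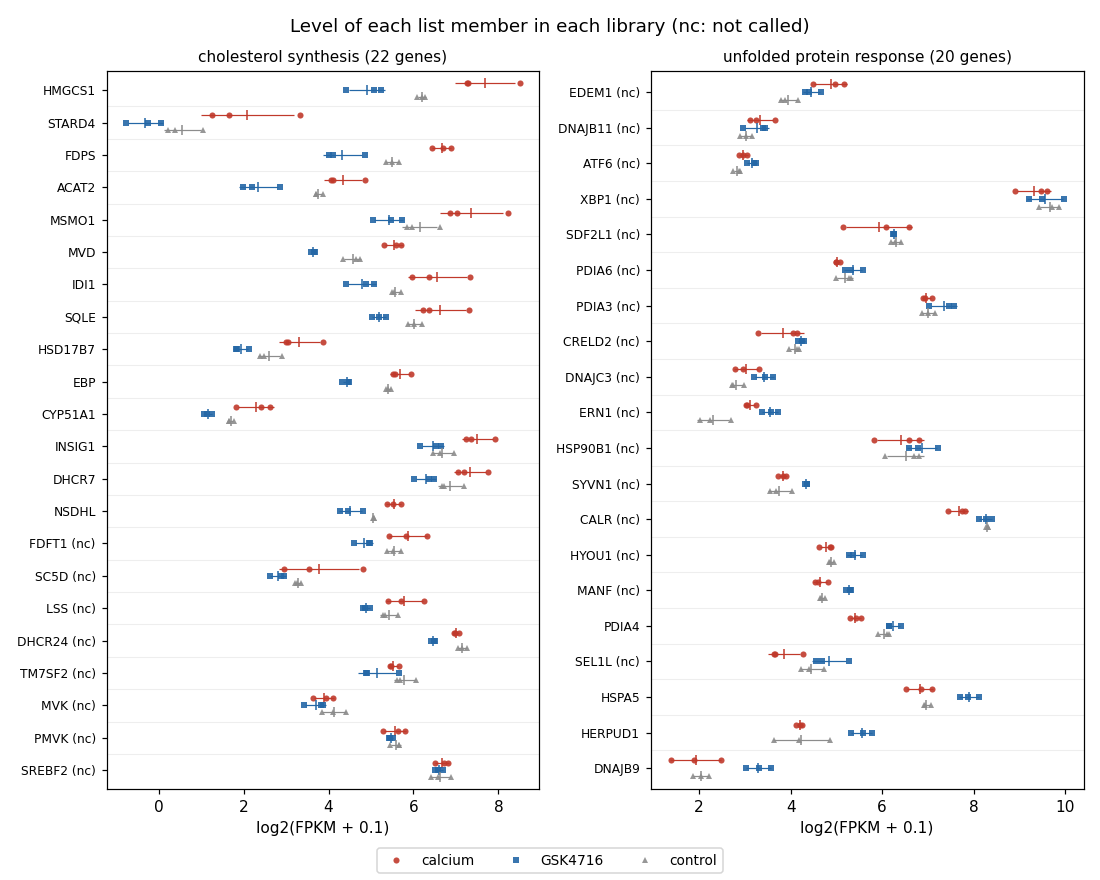
Log2(FPKM + 0.1) of 22 of the 24 tested genes of cholesterol synthesis and the 20 of the unfolded protein response, with 1 point per library for calcium (circles), GSK4716 (squares) and control (triangles), the tick at the mean, the bar at ± 1 SD, and "nc" beside genes not called. In HMGCS1, FDPS and MVD the control lies between the treatments, and in HERPUD1 and HSPA5 the agonist lies above both other groups.

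Of 47 tested G1/S and replication genes 4 were called lower, against 1.11% of all genes, 0 higher, and 43 were not called. The median was -0.53, with 45 negative, and in 28 the calcium libraries lay wholly below the agonist libraries, as they did in 1623 of the 14355 genes (26.6% did not overlap in either direction). CDT1, which licenses replication origins, read 5.17, 5.62 and 4.43 FPKM with calcium, 11.8, 10.9 and 16.4 FPKM with GSK4716 and 25.6, 30.2 and 25.4 FPKM in control (-1.33 ± 0.20, adjusted p = 0.0161). FEN1, the flap endonuclease of lagging-strand synthesis, read 8.03, 9.37 and 7.91 FPKM against 17.2, 15.8 and 14.7 FPKM, with control at 32.0, 46.4 and 25.7 FPKM (-0.91, adjusted p = 0.0225). In both genes the order of the groups was calcium, agonist, control, with no overlap. CDC6, the partner of CDT1, read 1.35, 1.36 and 1.17 FPKM against 3.18, 2.85 and 2.57 FPKM (-1.09, adjusted p = 0.03), and E2F2 (-1.03, adjusted p = 0.039) was the other called gene. E2F1 (-1.08, adjusted p = 0.109) and MCM2 (-0.94, adjusted p = 0.158) were not called. The list held 0 calls without calcium replicate 2 or GSK4716 replicate 1, 1 without calcium replicate 1, GSK4716 replicate 2 or GSK4716 replicate 3, 8 under scaling by total fragments or quantile normalization, and 0 in the fit of all 7 groups. The E2F element, searched as TTTCCCGC or TTTGGCGC, was in 15 of the 39 matched promoters of this list (38.5%), in 7.27% of those of called lower genes, in 3.18% of those tested and in 1.96% of all.

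Of 39 tested genes of mitosis 38 had a negative difference, and the median was -0.79, but -0.49 without GSK4716 replicate 3 and -1.20 without GSK4716 replicate 2. CDC20, the activator of the anaphase-promoting complex, read 19.8, 13.9 and 25 FPKM against 58.3, 19.96 and 76.6 FPKM and was not called (-1.23, adjusted p = 0.198), with GSK4716 replicate 2 within the calcium range. The groups did not overlap in 2 of the 39 genes, a smaller share than the 26.6% of all genes, and 1 was called, against 1.11% of all genes called lower. This gene, CKS1B, read 17.0, 14.9 and 17.8 FPKM against 29.3, 26.9 and 26.4 FPKM (-0.73, adjusted p = 0.0348). Without GSK4716 replicate 2 or without calcium replicate 3 the list held 3 calls, and without any 1 of the other 4 libraries it held 0. Of the 20 CDK inhibitor and p53 target genes, CDKN1A, the inhibitor p21, was called higher, at 57.9, 129 and 108 FPKM against 15.4, 9.73 and 22.9 FPKM (2.62 ± 0.38, adjusted p = 0.0145). Its control libraries read 7.48, 12.6 and 11.9 FPKM. CDKN2C, the inhibitor p18, was called lower, at 2.46, 1.09 and 1.29 FPKM against 6.22, 4.45 and 6.20 FPKM (-1.81, adjusted p = 0.0251). Neither was called without calcium replicate 2 or GSK4716 replicate 1, and CDKN2C also lost its call without GSK4716 replicate 2 or 3.

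Of 11 tested luminal markers 4 were called higher, against 3.53% of all genes, and 7 were not called, 3 of the 11 were negative, and the median was 0.21, but 0.44 without GSK4716 replicate 2. The called markers were keratins and an adhesion protein. KRT8 read 726, 705 and 447 FPKM against 173, 203 and 169 FPKM (1.76, adjusted p = 0.0112), and its partner KRT18 read 611, 656 and 393 FPKM against 182, 180 and 191 FPKM (1.55, adjusted p = 0.0145). KRT8 and KRT18 overlap on opposite strands, so their reads may be mixed. KRT19 read 1171, 1297 and 888 FPKM against 425, 552 and 367 FPKM (1.32, adjusted p = 0.0282), and the adhesion protein CDH1 read 8.91, 12 and 10.4 FPKM against 5.73, 4.90 and 5.35 FPKM (0.95, adjusted p = 0.0276). The luminal transcription factors GATA3 (0.39, adjusted p = 0.505), FOXA1 (0.10, adjusted p = 0.829) and XBP1 (-0.23) were not called. Of the basal or mesenchymal markers, KRT17 and CDH2 of 10 could be tested, and KRT17 was called, at 1.99, 8.10 and 3.67 FPKM against 0.235, 0.288 and 0.134 FPKM (3.68, adjusted p = 0.0133). KRT17 passed the limit on the mean only through the calcium libraries, so its call says nothing of the whole list. The other basal keratins were near 0, KRT5 at no more than 0.135 FPKM and KRT14 at no more than 0.0589 FPKM. The fibroblast marker COL1A1 was present at 9.74 to 17.1 FPKM in the 6 libraries and was not called (0.58, adjusted p = 0.0908). The part of these markers in the other results was not tested. The luminal list held 2 calls without calcium replicate 1 or GSK4716 replicate 3 and 0 without calcium replicate 2 or GSK4716 replicate 1, and the call of KRT17 was lost without calcium replicate 2 or GSK4716 replicate 1.

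The receptor at which the agonist is aimed could barely be read. ESRRB, from 0 to 12 fragments with calcium and from 3 to 7 with GSK4716, was at 0, 0.116 and 0 FPKM and at 0.0286, 0.0285 and 0.0495 FPKM, with control at 0.0261, 0.0878 and 0.0408 FPKM, so no difference was detectable at this depth. ESRRG, a relative that GSK4716 also binds, read 0.218, 0.252 and 0.295 FPKM against 0.342, 0.232 and 0.311 FPKM and was under the limit on the mean. ESRRA, the abundant member of the family, read 23.1, 22.8 and 22.3 FPKM against 20.1, 33.5 and 25.7 FPKM, and the groups overlapped (-0.18, adjusted p = 0.651). ESR1, the estrogen receptor, had 0, 0 and 6 fragments with calcium and 0, 5 and 5 with the agonist. Among 10 tested estrogen-related receptors and coregulators 0 were called by limma or limma-voom (by limma 3.53% of all genes were called higher and 1.11% lower). A negative difference was found in 9 and a positive one in 1, against 50.4% of all genes positive, and the median was -0.40. By limma 2 had an unadjusted p under 0.05, near the 20.7% of all genes. Without calcium replicate 3, 1 was called, in the lower direction.

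Of 38 tested metabolic targets of the estrogen-related receptors, 1 was called higher and 0 lower, which is near the shares of all genes (3.53% and 1.11%). A positive difference was found in 16, and the median was -0.05, from -0.12 to 0.05 with 1 library left out. The called gene, PERM1, a regulator of muscle mitochondria, read 4.28, 7.60 and 3.70 FPKM against 1.37, 2.47 and 1.19 FPKM (1.57, adjusted p = 0.0497), and it lost the call without any 1 of the 6 libraries, with a pseudocount of 1 and under each of the 3 other scalings. Another member of the list was called without calcium replicate 3. Enzymes of respiration and fat oxidation such as IDH3A (-0.07, adjusted p = 0.872), CYCS (0.08, adjusted p = 0.844) and ACADM (-0.31, adjusted p = 0.648) were not called.

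KLF4 was the 1 gene above the limit on the mean among the 10 target genes of the qPCR. KLF4, a pluripotency factor, read 22.1, 43.5 and 30.2 FPKM with calcium, 8.5, 11.1 and 10.0 FPKM with GSK4716 and 5.29, 3.95 and 7.53 FPKM in control (1.64 ± 0.25, adjusted p = 0.0175). Every calcium library was above every agonist library, and every agonist library above every control library. The call was lost without calcium replicate 2, GSK4716 replicate 1 or GSK4716 replicate 3. RPLP0, the reference gene of the qPCR, read 259, 268 and 216 FPKM against 309, 290 and 312 FPKM, all lower with calcium, and was not called (-0.30, adjusted p = 0.356). PRL was listed at 0 in all 6 libraries.

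Of 13 tested estrogen response genes AREG and TFF1 were called higher and SIAH2 lower. TFF1, a secreted trefoil protein, read 92.4, 106 and 61.1 FPKM against 12.5, 23.8 and 25.1 FPKM (2.10, adjusted p = 0.0159). Of 22 androgen response genes the 3 called higher were the keratins KRT8, KRT18 and KRT19 given above, and the sorbitol enzyme SORD was lower (-1.29). The androgen list held 0 calls without calcium replicate 2 or GSK4716 replicate 1, and the estrogen list 1 higher without calcium replicate 1 or 2 and 0 without GSK4716 replicate 1. Of all genes 3.53% were called higher and 1.11% lower. In the hypoxia list 2 of 22 were called, the glycolytic enzyme ALDOA (1.02) and the vessel-widening peptide ADM, at 5.42, 7.30 and 13 FPKM against 1.29, 0.995 and 1.82 FPKM (2.51, adjusted p = 0.0133), and 0 without calcium replicate 2 or GSK4716 replicate 1. The NRF2, metallothionein and mitochondrial genome lists held 0 calls of 16, 3 and 13 by limma or limma-voom, with 1, 0 and 0 genes at an unadjusted p under 0.05. The lists of the aryl hydrocarbon receptor (7 genes) and of pluripotency (3) held 0 as well, with 1 and 3 at an unadjusted p under 0.05. In the MYC network the repressor MXD3 was lower (-1.10) and in the BCL2 family the cell death gene BIK was higher (0.92), each the single call of its list. Both calls were lost without calcium replicate 2, GSK4716 replicate 1 or GSK4716 replicate 3, and that of BIK also without calcium replicate 1, while without calcium replicate 3 the BCL2 list held 2 calls.

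Calcium was also added to cells already given DES, in libraries that share none with those above, and that comparison was read for the same genes. Of the 14355 genes 15 (0.104%) differed between DES with calcium and DES alone, 1 higher and 14 lower, and 12 of the 15 were shorter than 200 bases. With the replicate number as a block, 0 were called by limma, with 2300 at an unadjusted p under 0.05, and limma-voom called 0 as well, with 1908. The labels do not state a pairing, which was taken from correlations of deviations in the data (0.144, 0.104 and 0.282). In the other direction, limma called 146 in a fit of all 7 groups and 473 with library weights. Of the 507 genes higher with calcium than with the agonist, 340 (67.1%) had a positive difference when calcium was added to DES, against 50.7% of all genes, with a median of 0.23. Of the 159 lower genes 71 (44.7%) were positive, with a median of -0.02. The difference between the 2 comparisons was not tested. MIR6069, a microRNA gene of 79 bases, was the single gene called in both, in opposite directions (3.94 and -5.01), from 1 to 4 fragments per calcium library. It was at 0 in every GSK4716 library and in every library of DES with calcium, so both differences depend on the pseudocount.

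FOS was high in the DES libraries as well when calcium was present, at 135, 173 and 88.4 FPKM, but DES alone held 19.9, 9.32 and 4.47 FPKM, and the difference of 3.75 ± 0.57 was not called (adjusted p = 0.128). FOSB read 8.73, 14 and 4.71 FPKM against 1.37, 0.712 and 0.446 FPKM (3.28, adjusted p = 0.14). EGR1 read 40.2, 39.5 and 25.5 FPKM against 10.3, 4.56 and 6.39 FPKM (2.34, adjusted p = 0.127). In these 3 genes the groups did not overlap. LIF read 1.24, 0.734 and 0.998 FPKM with DES and calcium and 0.434, 0.202 and 1.67 FPKM with DES, so the groups overlapped far below the level with calcium alone. F2RL1 read 0.396, 1.09 and 0.395 FPKM against 0.0897, 0.253 and 0.837 FPKM, again overlapping. By list, the median difference on top of DES was 0.09 for AP-1, 0.32 for the immediate early genes, 0.20 for cholesterol synthesis (21 of 24 positive), 0.29 for the unfolded protein response and 0.01 for the G1/S genes.

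**Figure D5:**
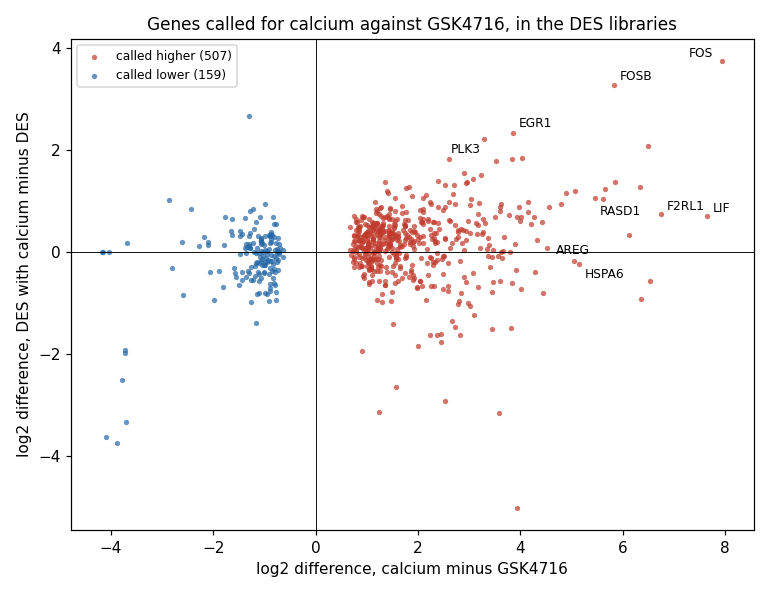
Each point is 1 of the 666 called genes, placed by its log2 difference calcium minus GSK4716 (x axis) and by its log2 difference DES with calcium minus DES (y axis). FOS (7.95 and 3.75) and FOSB (5.83 and 3.28) are high on both axes, while LIF (7.64 and 0.70) is high on the x axis alone.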

How the data were processed

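Tests compared 3 calcium with 3 GSK4716 libraries, and 3 DES with calcium with 3 DES libraries, grouped by the sample labels. The authors deposited FPKM values per gene. The submitters' processing notes name HISAT2 2.0.5, featureCounts 1.5.0-p3 and GRCh38.p14. The strand setting is stated in more than 1 way, so overlapping and antisense genes are uncertain. FPKM times gene length was a whole multiple of 1 step per library (tolerance 0.05), which gave fragments for depth and for the limit of 3 fragments. Values after ± are standard errors of the limma fit, and the bars in the figures are SDs over the libraries of a group. The limit of 3 fragments is a fixed floor. No pair of libraries was a copy (at most 4.02% of genes with equal fragments).

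Values were tested as log2(FPKM + 0.1) with limma 3.58.1 (lmFit, eBayes with trend) in R 4.3.3, two-sided, with Benjamini-Hochberg adjustment and a threshold of 0.05, and the steps were tested on simulated data. Python 3.11.15 made the tables, with pandas 2.3.3 on numpy 2.4.6, and the plots came from matplotlib 3.10.9. The genes and gene lists were chosen with earlier results of these data known. Genes named are the 12 largest called rises and falls with a protein-coding type, a mean of at least 1 FPKM and groups that do not overlap, up to 4 members of each list with the largest differences, the genes of the qPCR with ESRRA, ESRRG and RPLP0, and the largest called lncRNA rise and fall. Any other gene was chosen after its values were seen. Deviations of DES libraries with the same replicate number correlated at 0.144, 0.104 and 0.282, so they were taken as pairs. Alternatives were other pseudocounts, limits, scalings, weights, sample sets and models, and leaving out each library. The cadmium groups, and all promoter sequence beyond RefSeq's table for GRCh38.p14, were not used here. Some genes are not reported here.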

Additional observations from a re-analysis of the deposited data

How the results depend on the processing

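Calcium against GSK4716 gave 666 called genes, and from 566 to 886 with a pseudocount of 1, other limits on the mean, other scalings, a fit of all 7 groups, library weights or limma-voom, and 531 with a difference of at least 1. The count was 3 with no limit on low values and from 56 to 830 with 1 library left out. With the replicate number as a block 398 genes were called, 363 of them among the 666. Equal numbers did not pair these libraries (correlations of -0.031, 0.005 and 0.038).

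DES with calcium against DES gave 15 called genes. The count was 0 with a pseudocount of 1 (1885 at an unadjusted p under 0.05 by limma), 0 with the replicate block, 0 by limma-voom, 1 with no limit on low values, 7 with a mean of at least 2 FPKM, 3 with a mean of at least 10 recovered fragments (chosen after seeing the data), 8 under quantile normalization, 146 in a fit of all 7 groups, 473 with library weights, and from 0 to 42 with 1 library left out. It was 6 without DES replicate 2, and 0 without any 1 of the libraries of DES with calcium.

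Of the single genes named, MT-ATP8 (0.48) ranged from -0.11 without GSK4716 replicate 3 to 0.94 without GSK4716 replicate 1, and ESRRA (-0.18) from -0.36 without GSK4716 replicate 1 to 0.0026 without GSK4716 replicate 2, neither called. Calls were most often lost with no limit on low values (83 genes) and without GSK4716 replicate 1 (65) or calcium replicate 2 (60). The cause was not tested. With 3 libraries per group and a median SD of 0.318 log2 units among the calcium libraries, small differences could not be resolved.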

Other observations

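GSK4716 replicate 3 and control replicate 3 were both high in some stress-responsive genes. HMOX1, the heme oxygenase of the NRF2 response, read 169, 49.7 and 1035 FPKM with GSK4716, 11.6, 5.2 and 349 FPKM in control and 95.5, 65.5 and 32.9 FPKM with calcium, and was not called (-1.80, adjusted p = 0.345). The largest fall among called lncRNA genes was AC015813.1, at 1.02, 1.37 and 1.38 FPKM with calcium against 4.25, 3.71 and 4.20 FPKM with GSK4716 (-1.63, adjusted p = 0.0104). The share of transcription factor genes was 5.92% among the called higher genes and 8.81% among the called lower genes, against 6.40% of all genes tested. CA9, a hypoxia gene, read 0.0805, 4.76 and 5.67 FPKM with calcium, 1.35, 0.202 and 0.126 FPKM with GSK4716 and 0.0556, 4.56 and 0.0362 FPKM in control, so the spread within groups exceeded the gap between them.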
